A study of Mus musculus with 6 samples.

Results

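The genes described here are 8 members of the cholesterol synthesis route, followed in knee articular cartilage of adseverin knockout and WT mice: Hmgcs1, Idi1, Fdps, Fdft1, Sqle, Cyp51, Hsd17b7 and Insig1. They were picked by name, through the mouse gene symbols that belong to the Ensembl identifiers of the deposited count table. All 8 were found among its 55401 genes, and all 8 were among the 16260 genes with enough reads to be tested. Every member except Insig1 is an enzyme of the route, Insig1 is its brake, and none takes up cholesterol, so the uptake receptors are given from a separate list.

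Adseverin, encoded by Scin, is a calcium-dependent protein that cuts and caps actin filaments. The adseverin knockout group, written cKO, held 3 samples of 10-week-old mice, and the WT group held 3 samples of the same age. Both groups received tamoxifen, 1.5 mg per 10 g of body weight daily for 5 days starting at 8 weeks of age, and RNA was extracted from the pieces of knee cartilage, which are labelled as native articular chondrocytes. Neither the Cre line, nor the deleted Scin exons, nor the number of mice behind a sample is given in the labels, so every p-value measures the spread between these samples. As background, tamoxifen is known to bind and inhibit the sterol isomerase that Ebp encodes, and since both groups received it, no untreated level was measured here.

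Cells build cholesterol from acetyl-CoA. The first enzymes make mevalonate and from it the isoprenoid farnesyl diphosphate, squalene synthase commits farnesyl to sterols, squalene is oxidised and closed into lanosterol, and a chain of later enzymes trims lanosterol into cholesterol. Transcription of the route is driven by SREBP factors, which the escort protein SCAP carries out of the endoplasmic reticulum when sterols run low, and which the INSIG proteins hold back when sterols are plentiful. In cartilage, chondrocytes need cholesterol for membranes and for hedgehog signalling, and cholesterol loading and oxysterols of chondrocytes have been studied in osteoarthritis.

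Promoters of members are shown because SREBP factors bind sterol response elements (SREs) beside NF-Y and Sp1 sites. A link between these motifs and the levels below was not tested. RefSeq windows of 300 bases on GRCm38.p6, which run across the start of the gene and lie mostly before it, were on hand for 5 of the 8 members, and those of Hmgcs1, Cyp51 and Hsd17b7 are printed 5′ to 3′ on the strand of the gene. Capitals mark matches on either strand to TCACNCCAC (a relaxed SRE), CCAAT (the NF-Y box, ATTGG on the other strand) and GGGCGG (the GC box bound by Sp1, CCGCCC on the other strand). The windows lie at chr13:119690101-119690400 on the plus strand, chr5:4104648-4104947 on the minus strand and chr1:169969156-169969455 on the minus strand, in the order of the lines.
Hmgcs1: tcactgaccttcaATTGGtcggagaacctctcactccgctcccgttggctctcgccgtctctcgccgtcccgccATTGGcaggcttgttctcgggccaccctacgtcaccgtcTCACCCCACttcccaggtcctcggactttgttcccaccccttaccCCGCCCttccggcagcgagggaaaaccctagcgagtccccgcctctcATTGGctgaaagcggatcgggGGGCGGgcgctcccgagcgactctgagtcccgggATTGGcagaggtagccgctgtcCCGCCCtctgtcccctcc
Cyp51: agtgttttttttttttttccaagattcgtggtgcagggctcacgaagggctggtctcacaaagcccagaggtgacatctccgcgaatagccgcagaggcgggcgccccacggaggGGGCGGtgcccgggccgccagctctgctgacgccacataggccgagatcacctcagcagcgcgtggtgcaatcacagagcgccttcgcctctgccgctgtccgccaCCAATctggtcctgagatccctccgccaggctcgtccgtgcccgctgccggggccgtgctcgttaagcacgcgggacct
Hsd17b7: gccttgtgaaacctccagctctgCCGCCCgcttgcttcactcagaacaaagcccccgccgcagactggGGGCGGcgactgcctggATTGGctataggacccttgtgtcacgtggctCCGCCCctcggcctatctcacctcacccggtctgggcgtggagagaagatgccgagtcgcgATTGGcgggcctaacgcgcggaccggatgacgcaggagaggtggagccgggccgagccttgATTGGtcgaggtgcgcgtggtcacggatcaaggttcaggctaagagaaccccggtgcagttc

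The NF-Y box was found in 5 of 5 member windows, against 37.4% of 32851 windows of the same length in the whole RefSeq table, and the GC box in 5 of 5, against 35.7%. Hmgcs1 held 4 NF-Y boxes and 3 GC boxes, Hsd17b7 held 3 of each, and Cyp51 held 1 of each. The relaxed SRE was found in 1 of 5, Hmgcs1, where it starts at base -137 from the RefSeq start site used for the window, which differs from the start of the gene in GENCODE, against 1.24% of all windows. Of 13 other enzymes and helpers of the route with a window, 11 held the NF-Y box, 12 the GC box and 0 the relaxed SRE. The NF-Y and GC boxes are thus not particular to the members. In the member windows no match of one motif overlapped a match of another, and a match describes only the letters of the window.

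Libraries held 22664828 to 31014996 reads assigned to genes. Levels are given as CPM, the reads of a gene scaled to a common library size (counts-per-million) with TMM factors. Scin itself had 39.1, 29.9 and 29.4 CPM in cKO cartilage, against 186, 185 and 219 CPM in WT cartilage. Its log2 fold change was -2.59 ± 0.14 (SE, edgeR adjusted p = 6.59e-04), and it was the only gene of all 16260 that passed an adjusted p under 0.05 (0.00615% of those tested). Col2a1, the main cartilage collagen, averaged 17598 ± 2603 CPM in cKO and 14840 ± 429 CPM in WT cartilage, and Prg4, the lubricin gene of the joint surface, averaged 5222 ± 696 CPM in cKO and 5255 ± 350 CPM in WT (SD, n = 3 each). The summed level of 10 chondrocyte markers was 33921 to 39012 CPM in cKO and 31453 to 32306 CPM in WT cartilage, that of 10 osteoblast and osteocyte markers 37722 to 38931 CPM in cKO and 31758 to 36824 CPM in WT, and that of 10 macrophage and leukocyte markers 745 to 939 CPM in cKO and 961 to 1257 CPM in WT. These 3 sums did not overlap between the groups, but they follow the most abundant genes. Ibsp alone averaged 27838 CPM in cKO and 24417 CPM in WT cartilage. Gene by gene, cKO was higher without overlap for 4 of 10 chondrocyte and 1 of 10 osteoblast and osteocyte genes (6.41% of all tested genes). The same held for 4 of 10 erythroid and 1 of 10 neutrophil genes. The cKO group was lower without overlap for 1 of 10 chondrocyte genes, Acan, and 3 of 10 macrophage and leukocyte genes (5.89%). Of the fibroblast genes, 1 of 10 was lower without overlap. Summed markers of adipocytes (Lep at 0 in every library), fibroblasts, endothelium, erythroid cells, neutrophils and muscle overlapped, and muscle markers reached 1627 CPM in WT 2, against 32.7 to 62.5 CPM in the other WT libraries. The part of these cell types in the values of the sterol genes was not tested, and in such bulk samples fewer cells of a type and less RNA per cell cannot be told apart.

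None of the 8 members passed the test between cKO and WT cartilage, by edgeR, DESeq2 or limma-voom, against 0.00615% of all tested genes by edgeR. Their fold changes, cKO over WT, lay between 0.751 and 1.22, and their 95% intervals reached no lower than 0.573 and no higher than 1.76. The log2 fold change was above 0 for 7 of the 8, Hsd17b7 being the exception, against 50.6% of all tested genes. The median of the 8 was 0.15 on the log2 scale, and that of all tested genes was 0.0037. At an unadjusted p under 0.05, 2 of 8 members passed, Sqle and Hsd17b7, against 6.50% of all tested genes. Groups that did not overlap were seen for 1 of 8 members, against 12.3% of all tested genes. That member was Sqle, higher in cKO (6.41% of all tested genes), and 0 of 8 were lower in cKO without overlap (5.89%).

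Hmgcs1 (ENSMUSG00000093930.2, chr13:119690379-119708260, plus strand, GRCm38) encodes the cytosolic HMG-CoA synthase, an early enzyme of the route. It had 114, 114 and 105 CPM in cKO cartilage, against 100.1, 86.7 and 106 CPM in WT cartilage. The cKO libraries were the higher ones apart from cKO 3, which lay just under WT 3. The means were 111 ± 5.36 CPM in cKO and 97.8 ± 10.1 CPM in WT (SD, n = 3 each), a log2 fold change of 0.19 ± 0.10 (SE) with a fold interval of 0.971 to 1.33 (edgeR adjusted p = 0.812). This SE was the smallest of the 8.

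Idi1 (ENSMUSG00000058258.14, chr13:8885501-8892451, plus strand) encodes the isomerase that turns isopentenyl diphosphate into dimethylallyl diphosphate, the primer of isoprenoid chains. It had 5.18, 6.35 and 4.86 CPM in cKO cartilage, against 4.63, 4.43 and 5.78 CPM in WT cartilage, from 101 to 193 reads a library. The groups overlapped, with a log2 fold change of 0.14 ± 0.26 and a fold interval of 0.728 to 1.68 (edgeR adjusted p = 0.965).

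Fdps (ENSMUSG00000059743.12, chr3:89093588-89101959, minus strand) encodes farnesyl diphosphate synthase, the target of nitrogen-containing bisphosphonates. It had the lowest level of the members, with 3.59, 5.14 and 2.93 CPM in cKO cartilage, against 4.48, 2.94 and 4.03 CPM in WT cartilage, from 67 to 156 reads a library. Both the highest and the lowest library were cKO ones. The log2 fold change was 0.03 ± 0.34, the fold interval of 0.590 to 1.76 was the widest of the 8 (edgeR adjusted p = 0.994), and the sign of the change turned when cKO 2 or WT 2 was left out, to -0.23 and -0.14.

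Fdft1 (ENSMUSG00000021273.11, chr14:63145150-63179578, minus strand) encodes squalene synthase, the first enzyme committed to sterols. It had 28.4, 34.8 and 30.4 CPM in cKO cartilage, against 26.9, 23.2 and 34.4 CPM in WT cartilage. WT 3 stood among the cKO values and the other WT libraries under them, and the log2 fold change was 0.15 ± 0.17 with a fold interval of 0.845 to 1.45 (edgeR adjusted p = 0.929). Ctsb, on the opposite strand, overlaps 18.3% of its exon bases, and no source used here says whether the counting used strand.

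Sqle (ENSMUSG00000022351.14, chr15:59315077-59331192, plus strand) encodes squalene epoxidase, which makes the first oxygenated sterol precursor. It had 134.9, 132.2 and 107.8 CPM in cKO cartilage, against 105.6, 94.7 and 107.3 CPM in WT cartilage. The groups did not overlap, but cKO 3 and WT 3 were the nearest to each other, while cKO 1 and cKO 2 stood clear of every WT library. The means were 125 ± 14.9 CPM in cKO and 103 ± 6.82 CPM in WT (SD, n = 3 each). The log2 fold change was 0.29 ± 0.11 with a fold interval of 1.02 to 1.45, at an edgeR p of 0.0301 before and 0.715 after adjustment.

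Cyp51 (ENSMUSG00000001467.5, chr5:4081145-4104746, minus strand) encodes the cytochrome P450 that demethylates lanosterol, the step that azole drugs block in fungi. It had 63.5, 55.1 and 50.6 CPM in cKO cartilage, against 55.8, 46.6 and 49.5 CPM in WT cartilage. The groups overlapped through WT 1, and the log2 fold change was 0.15 ± 0.12 with a fold interval of 0.915 to 1.36 (edgeR adjusted p = 0.894).

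Hsd17b7 (ENSMUSG00000026675.12, chr1:169949535-169969241, minus strand) encodes the keto-sterol reductase of the demethylation steps after lanosterol, an enzyme that can also reduce estrone to estradiol. It had 20.23, 16.5 and 16.8 CPM in cKO cartilage, against 20.17, 23.0 and 28.1 CPM in WT cartilage. The groups met only at their edge, in cKO 1 and WT 1. The means were 17.9 ± 2.07 CPM in cKO and 23.7 ± 4.01 CPM in WT (SD, n = 3 each). The log2 fold change was -0.41 ± 0.17 with a fold interval of 0.573 to 0.984, at an edgeR p of 0.0405 before and 0.735 after adjustment. Without WT 3, the library with the highest level, it was -0.27.

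Insig1 (ENSMUSG00000045294.11, chr5:28071363-28078662, plus strand) encodes the sterol-sensing protein of the endoplasmic reticulum that retains SCAP, and is itself a classical SREBP target. It had 66.1, 50.3 and 55.8 CPM in cKO cartilage, against 61.1, 47.5 and 57.0 CPM in WT cartilage. The groups covered nearly the same range, and the log2 fold change was 0.06 ± 0.14 with a fold interval of 0.832 to 1.30 (edgeR adjusted p = 0.974). Its sign turned when cKO 1 or WT 2 was left out, to -0.06 and -0.05.

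**Figure D1:**
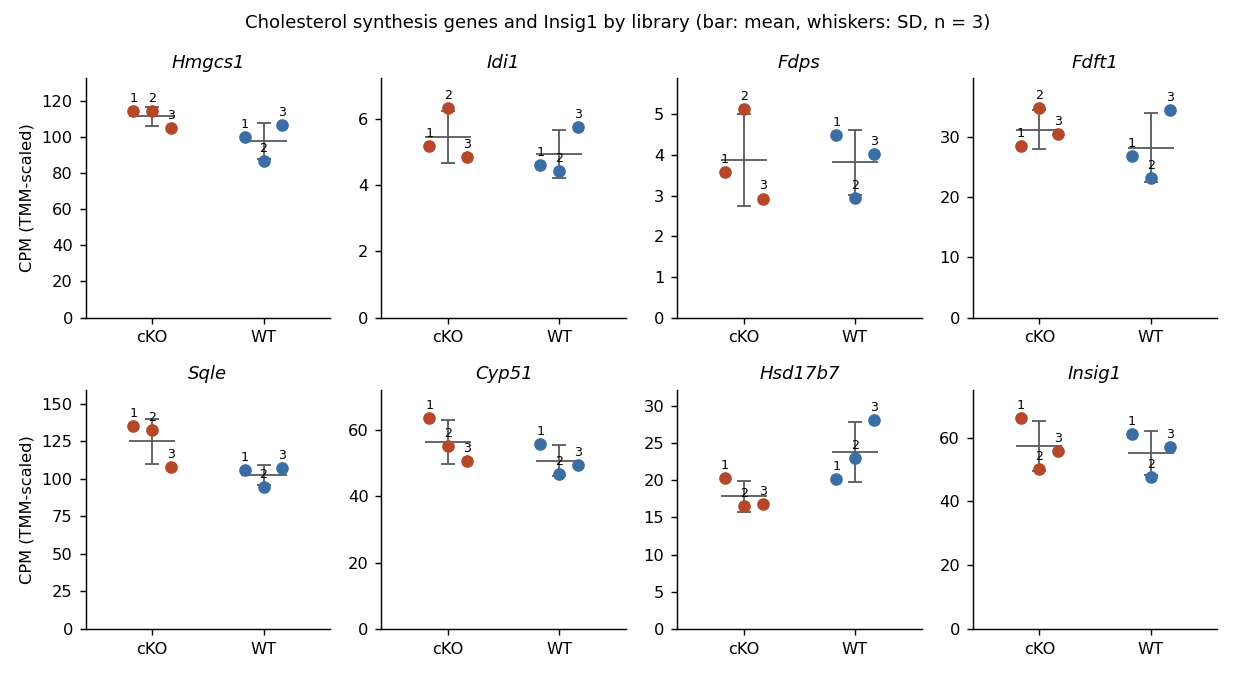
CPM (TMM-scaled, linear axis from 0) of the 8 genes in each library, with cKO left of WT; points are libraries, bars are means and whiskers SDs (n = 3 each). The groups overlap in every panel but that of Sqle, where the lowest cKO library (107.8 CPM) lies just over the highest WT library (107.3 CPM).

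Levels of different genes were compared as CPM per kilobase of merged exon. On that scale the members ranged from Hmgcs1, at 24.2 ± 1.17 in cKO and 21.3 ± 2.19 in WT cartilage, to Fdps, at 0.923 ± 0.269 in cKO and 0.907 ± 0.188 in WT (SD, n = 3 each). After Hmgcs1 came Sqle with 22.5 ± 2.69 in cKO and 18.5 ± 1.23 in WT. Insig1 followed with 18.6 ± 2.59 in cKO and 17.8 ± 2.25 in WT, and Cyp51 with 12.8 ± 1.48 in cKO and 11.5 ± 1.06 in WT. The lower members were Fdft1 with 7.38 ± 0.777 in cKO and 6.66 ± 1.35 in WT, Hsd17b7 with 3.50 ± 0.406 in cKO and 4.65 ± 0.785 in WT, and Idi1 with 1.56 ± 0.225 in cKO and 1.41 ± 0.207 in WT. Over the 6 libraries, the ranges of Hmgcs1 and Sqle, of Sqle and Insig1, and of Fdft1 and Hsd17b7 overlapped, and those of the other neighbours in the order did not. On these counts Idi1 and Fdps, the enzymes that make and extend the isoprenoid chain, were the lowest of the 8. Both share sequence with other genes, as described below.

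**Figure D2:**
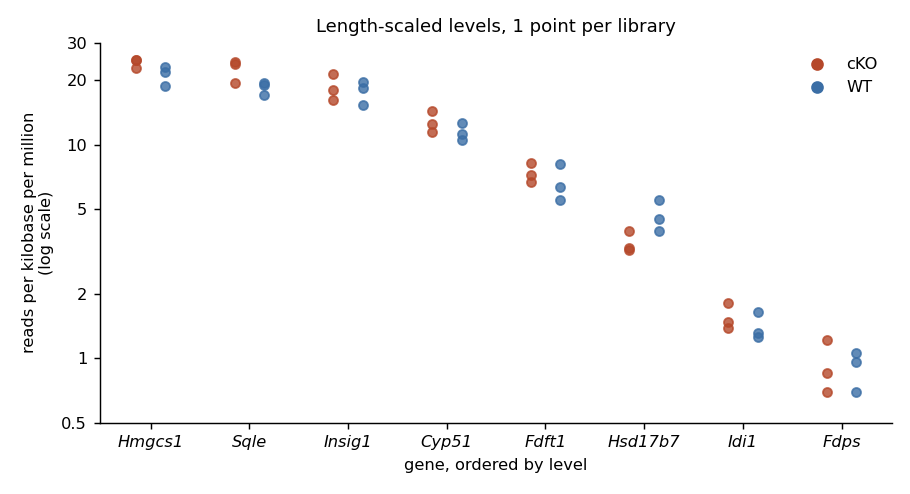
CPM per kilobase of merged exon (log axis) of the 8 genes, ordered by level, with 1 point per library and cKO left of WT. The genes span from about 24.2 (Hmgcs1, cKO mean) to 0.907 (Fdps, WT mean), and the groups lie side by side within each gene.

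Part of the length of some members is shared with other transcripts, which can move reads between genes by an amount that depends on how the authors treated reads with several matches, which no source used here gives. Of the 50-base stretches of its transcripts, Fdft1 shared 26.5% with another gene, Fdps 26.2%, Idi1 25.3% and Hmgcs1 11.6%, while Cyp51 shared 2.77%, Insig1 2.17%, Sqle 0.0358% and Hsd17b7 0%. These shares do not bound the uncertainty of a level, since the partner can hold more reads than the member. The pseudogene Gm3571, a copy of Fdps, had 736 reads over the 6 libraries, against 606 of Fdps, and Ctsb had 269933 reads, against 4614 of Fdft1. Gm43738, a protein-coding gene on the strand of Fdps, overlaps 26.7% of its exon bases and had 1 read over the 6 libraries. How reads that fall on both genes were counted is not given. The low level of Fdps, and its place under Idi1 in the order of levels, are therefore uncertain. Sqle and Hsd17b7, the members with the largest and the smallest log2 fold change, were almost free of such stretches and of overlapping exons.

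Across libraries the members other than Hsd17b7 were all low in WT 2, while the order of the other libraries differed between them. For example, cKO 2 was the highest library for Fdft1 but lay below WT 1 and WT 3 for Insig1. WT 2 was the lowest of the 6 libraries for 6 of the 8 members, a share that was not counted over all tested genes. For Hsd17b7 alone the highest library was a WT one. The highest library was cKO 2 for 4 members and cKO 1 for 3. Centred on each gene's mean over the 6 libraries, the average log2 CPM of the 8 members was 0.09, 0.12 and -0.10 in cKO 1 to 3, against -0.0023, -0.21 and 0.10 in WT 1 to 3. The cKO library 3 thus lay below the WT libraries 1 and 3. Summed over the 8, the level was 436, 415 and 374 CPM in cKO cartilage (408 ± 31.4), against 379, 329 and 393 CPM in WT cartilage (367 ± 33.3, SD, n = 3 each), with cKO 3 between the WT libraries. Without WT 2, the library in which muscle markers were high, the median log2 fold change of the 8 was 0.04; it was 0.10 without cKO 2, 0.13 without cKO 1, and 0.14 to 0.21 without any other single library.

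**Figure D3:**
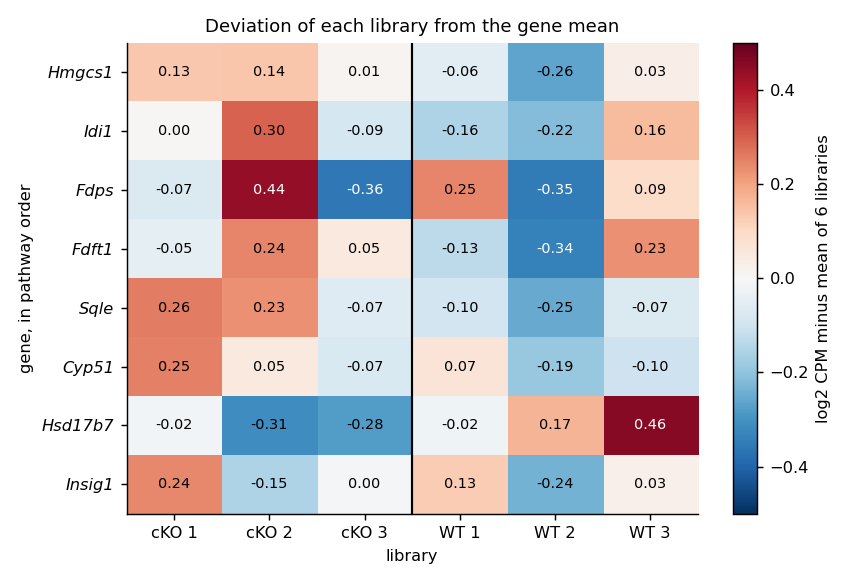
Log2 CPM of each member in each library minus the gene's mean over the 6 libraries (colour), with genes in pathway order from top to bottom and the cKO libraries left of the WT libraries. WT 2 is the lowest library for 6 of the 8 genes, and Hsd17b7 is highest in WT 3.

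The likeness of profiles was measured as the root mean square difference of the centred log2 CPM over the 6 libraries, for 28 pairs of members, as a description. Hmgcs1 and Sqle were closest at 0.084, followed by Idi1 and Fdft1 at 0.086, Sqle and Cyp51 at 0.10, and Hmgcs1 and Cyp51 at 0.11, while the median pair stood at 0.24. Hsd17b7 was farthest from the rest, with a median of 0.34 to the other members, against 0.13 for Hmgcs1, and the widest pair was Fdps and Hsd17b7 at 0.42. These distances take in counting error, which is larger for Fdps and Idi1. Pairs of other genes were not measured, so close and far hold only among these 28 pairs. Per 100 reads of Cyp51, an earlier enzyme of the same stretch of the route, Hsd17b7 had 31.9, 29.9 and 33.3 reads in cKO cartilage, against 36.2, 49.3 and 56.7 reads in WT cartilage. The groups did not overlap, but this pair was chosen after its values were seen, and its genes had log2 fold changes of opposite sign. The share of other gene pairs whose ratios separate the groups was not counted, so no conclusion is drawn from this ratio.

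The mean profile of the members was set against 11643 genes outside all lists with a mean of at least 2 CPM. Genes with predicted-gene, clone, accession or -ps symbols were left out. The 5 nearest were Mtus1 (0.037), Rida (0.038), Acat1 (0.038), Ldlrad3 (0.039) and Seh1l (0.040), against a median distance of 0.24. Acat1, the mitochondrial acetoacetyl-CoA thiolase, averaged 155 ± 13.0 CPM in cKO and 150 ± 13.9 CPM in WT cartilage, and Mtus1 averaged 171 ± 15.7 CPM in cKO and 167 ± 15.7 CPM in WT (SD, n = 3 each).

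The other 15 enzymes and helpers of the route were all tested and 0 passed, against 0.00615% of all tested genes. Their log2 fold changes were above 0 for 11 and below 0 for 4, with a median of 0.13. Lbr, the lamin B receptor, which also carries a sterol reductase domain, had 64.8, 56.1 and 68.4 CPM in cKO cartilage, against 52.1, 42.6 and 44.0 CPM in WT cartilage. Its groups did not overlap, and the log2 fold change was 0.45 ± 0.12 at an edgeR p of 0.00641 before and 0.658 after adjustment. Tm7sf2, the sterol reductase that shares this step with Lbr, had a log2 fold change of 0.49 ± 0.35, and Mvk, mevalonate kinase, averaged 19.9 ± 3.13 CPM in cKO and 16.7 ± 0.581 CPM in WT cartilage, 0.26 ± 0.16 on the log2 scale. The 4 below 0 were Erg28 at -0.02, Ebp at -0.10, Sc5d at -0.11 and Dhcr7 at -0.20, all of them late in the route. Idi2, the paralog of Idi1, had 0 reads over all 6 libraries and was not tested.

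Put in the order of the route, a grouping made after the values were seen, the 11 enzymes up to lanosterol had log2 fold changes above 0 in 11 of 11, with a median of 0.17. From lanosterol on, 6 of 11 lay above 0 and 5 below, with a median of 0.07. WT 2 bore on the first group: without it, 9 of 11 lay above 0 and the medians of the early and late enzymes were 0.06 and 0.06. Without cKO 2, 10 of 11 early enzymes lay above 0, and without cKO 1 or WT 1 the median of the late enzymes was -0.03 or -0.0070.

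**Figure D4:**
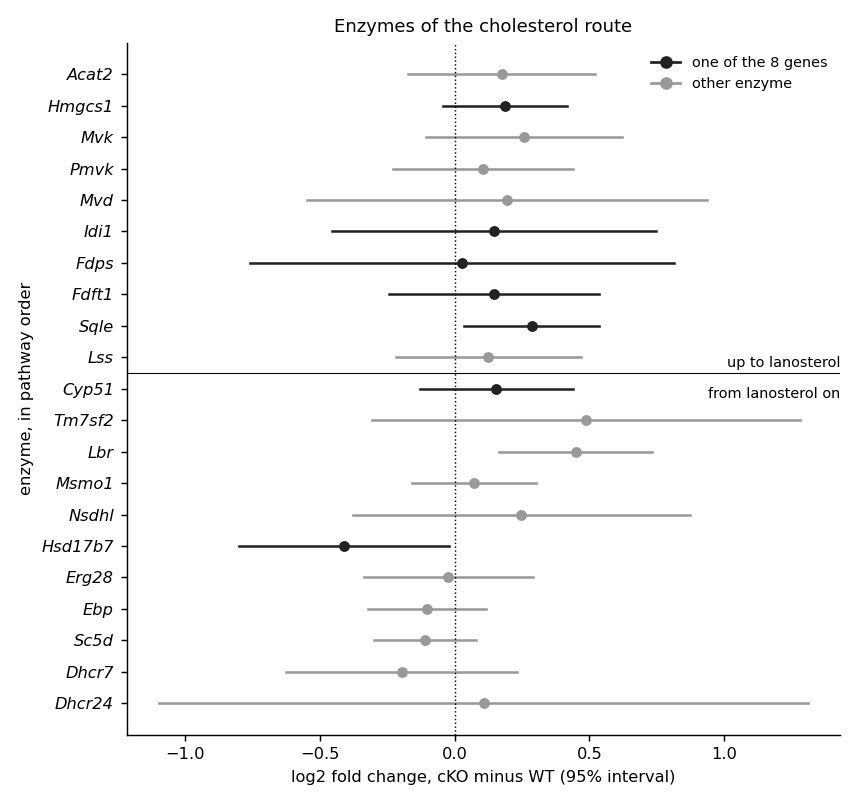
Log2 fold change, cKO minus WT, with 95% interval (edgeR) for enzymes and helpers of the route in pathway order from top to bottom. The points down to the lanosterol synthase Lss lie above 0, those after it lie on both sides, and none of those shown passed an adjusted p under 0.05.

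The SREBP machinery showed no called change in 8 of 8 genes, with 3 log2 fold changes above 0, 5 below 0 and a median of -0.05. The factors themselves, Srebf1 (-0.06 ± 0.10) and Srebf2 (-0.04 ± 0.13), and the escort Scap (0.03 ± 0.10) lay near 0 on the log2 scale. Insig2, the paralog of Insig1, averaged 271 ± 19.9 CPM in cKO and 299 ± 29.8 CPM in WT cartilage, -0.14 ± 0.10 on the log2 scale (edgeR adjusted p = 0.873). Per kilobase of exon it was the more abundant of the INSIG genes, at 78.1 ± 5.73 in cKO and 86.1 ± 8.58 in WT cartilage, against 18.6 in cKO and 17.8 in WT cartilage for Insig1. Mbtps2, the site-2 protease that releases SREBP within the membrane, had 13.5, 6.65 and 3.68 CPM in cKO cartilage, against 16.9, 14.6 and 16.9 CPM in WT cartilage. The cKO libraries were all lower but spread widely, and the log2 fold change of -1.02 ± 0.41 had an edgeR p of 0.0351 before and 0.719 after adjustment. Rnf139, a sterol-regulated ubiquitin ligase, stood at 0.10 ± 0.12.

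Of 12 genes of lipoprotein uptake and cholesterol delivery, 11 were tested and 0 passed, with 5 log2 fold changes above 0, 6 below 0 and a median of -0.02. Lrp8, the apolipoprotein E receptor that also binds reelin, had 19.7, 15.5 and 17.7 CPM in cKO cartilage, against 21.6, 27.3 and 30.4 CPM in WT cartilage. Its groups did not overlap, with a log2 fold change of -0.59 ± 0.17 at an edgeR p of 0.00858 before and 0.658 after adjustment. Lipa, the lysosomal acid lipase, stood at -0.30 ± 0.22 and Scarb1, the HDL receptor, at 0.11 ± 0.09.

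Of 13 genes of efflux, storage and oxysterol metabolism, 0 passed, with 10 log2 fold changes above 0, 3 below 0 and a median of 0.11. Cyp27a1, the mitochondrial sterol hydroxylase that makes an oxysterol from cholesterol, had 26.6, 21.0 and 21.0 CPM in cKO cartilage, against 15.4, 15.6 and 15.4 CPM in WT cartilage. The groups did not overlap, and the log2 fold change of 0.56 ± 0.15 had the smallest p of all 71 sterol and lipid genes tested, 0.00541 before and 0.643 after adjustment by edgeR. Cyp7b1, the oxysterol hydroxylase, averaged 3.71 ± 0.479 CPM in cKO and 2.48 ± 0.406 CPM in WT cartilage, 0.58 ± 0.33 on the log2 scale. Apoe, the apolipoprotein of cholesterol export, averaged 597 ± 58.7 CPM in cKO and 676 ± 49.4 CPM in WT (-0.18 ± 0.10). Of 11 fatty acid synthesis genes, the neighbouring programme that SREBP factors also drive, 0 passed, 3 lay above 0 and 8 below, and the median was -0.03. Scd1, the stearoyl-CoA desaturase, had 51.0, 41.2 and 31.2 CPM in cKO cartilage, against 80.9, 70.2 and 53.7 CPM in WT cartilage, every cKO library under every WT library, with a log2 fold change of -0.73 ± 0.21 at an edgeR p of 0.00691 before and 0.658 after adjustment. Fads1 stood at 0.11 ± 0.11 and Me1 at 0.10 ± 0.10. Scd1 is also abundant in adipocytes, whose 9 tested markers had log2 fold changes below 0 in 9 of 9 with a median of -1.27, at summed levels of 274 to 562 CPM in cKO and 245 to 652 CPM in WT cartilage, and their part in the Scd1 values was not tested.

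The 5 side-branch genes that use farnesyl or its precursors for other isoprenoids gave 0 calls, 4 log2 fold changes above 0 and a median of 0.04. Pdss1 and Pdss2, which build the tail of ubiquinone, stood at 0.47 ± 0.29 and 0.13 ± 0.36, and Nus1, of dolichol synthesis, at -0.12 ± 0.10. Over the members and the 6 lists together, 7 of 71 tested genes had an unadjusted p under 0.05, against 6.50% of all tested genes, and the smallest adjusted p was 0.643.

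**Figure D5:**
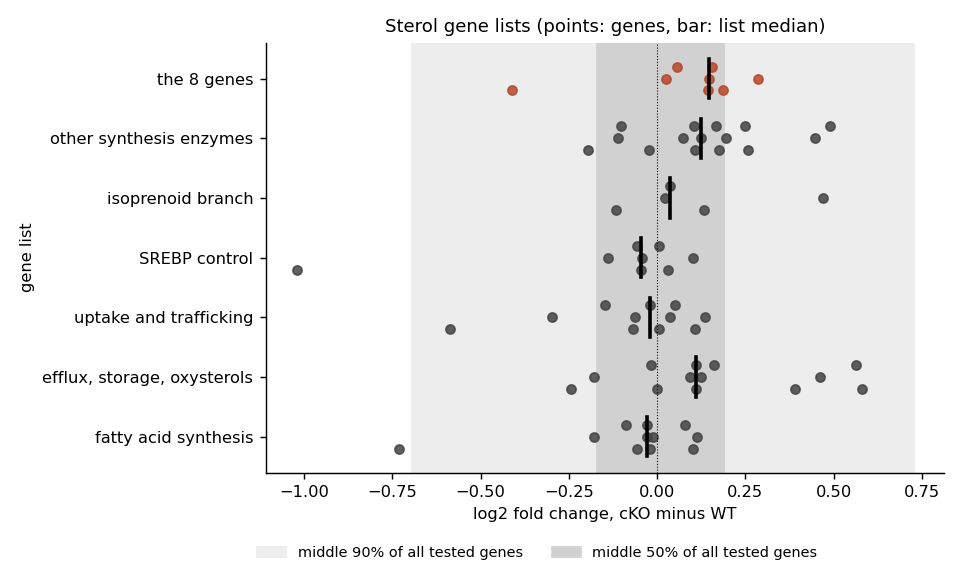
Log2 fold change, cKO minus WT, of every tested gene (points) in the 8 members and 6 sterol and lipid lists, with a bar at each list's median. Shading runs over all tested genes from the 25% to the 75% quantile (dark, -0.17 to 0.19) and from the 5% to the 95% quantile (light, -0.69 to 0.73). The medians run from -0.05 (SREBP control) to 0.15 (the members), and 0 of the 71 genes passed an adjusted p under 0.05.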

How the data were processed

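RNA of 3 cKO and 3 WT samples was sequenced after full-length cDNA synthesis for very low input. The submitters' processing notes name the build GRCm38 and, without their roles, the tools HISAT2 2.2.1, DESeq2 1.30.1, featureCounts 2.0.1, FastQC 0.11.9 and R 4.0.5. Their settings, strand and annotation release are not given in the sources at hand. The table that was used holds the authors' deposited, raw read counts per Ensembl gene. A deposited normalized table was not used.

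Symbols and positions (GENCODE M21, GRCm38) were found for 55141 of 55401 genes. In R 4.3.3, edgeR 4.0.16 was run with filterByExpr, TMM, glmQLFit and glmQLFTest (4 residual degrees of freedom) and Benjamini-Hochberg adjustment over all 16260 genes, with a threshold of 0.05. SE is the log2 fold change divided by the square root of F, in absolute value. Centred log2 CPM used a prior count of 2, and lengths are merged exons. With 3 samples a side, exact permutation cannot reach a p under 0.1 and was not run. The code was tested on simulated data.

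The members, gene lists and tests were chosen with earlier results of these data known. Named were Scin, the members, Srebf1, Srebf2, Scap, Insig2 and Idi2, the genes with p under 0.05 in each list or else the 3 smallest, the 5 nearest profiles, and marker genes. Further genes of this rule are not reported here. Genes named beyond these were chosen after their values were seen. Alternatives were DESeq2 1.42.0, limma-voom (limma 3.58.1), RLE factors, library sizes alone, no filter, at least 1 CPM in 3 libraries, the replicate number as a block, and leaving out each library. Chi-square per degree of freedom between libraries of a group was 31.4 to 36.5 over genes with at least 50 reads, so none was counted as a duplicate.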

Additional observations from a re-analysis of the deposited data

How the results depend on the processing

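No member passed in any of the 13 alternatives to the edgeR test, and 6 of the 8 kept their sign in 13 of 13. Insig1 turned to -0.057 without cKO 1 and -0.048 without WT 2, and Fdps to -0.23 without cKO 2 and -0.14 without WT 2, within ranges of -0.057 to 0.14 and -0.23 to 0.19 when a library was left out. The smallest adjusted p of a member under any alternative was 0.508 (Sqle) and 0.588 (Hsd17b7). Genes called over the whole table numbered 1 with edgeR as reported, 3 without a filter, 91 with DESeq2 and 1 to 2 when a library was left out. The median log2 fold change of the members was 0.042 to 0.21 when a library was left out. That of the other enzymes was 0.060 to 0.18, of the isoprenoid genes 0.033 to 0.12, of the SREBP genes -0.095 to 0.0098, of the uptake genes -0.098 to 0.035, of the efflux genes 0.070 to 0.15 and of the fatty acid genes -0.036 to 0.015. The SREBP, uptake and fatty acid medians turned above 0 when cKO 2 was left out, and the fatty acid median also without WT 3. The causes of these moves were not tested. With the replicate number as a block, 1 gene was called, the median of the members was 0.15 and that of the other enzymes 0.17, against 0.13 without it. Same-numbered cKO and WT samples had correlations of deviations of -0.019, 0.071 and 0.023, against -0.068 to 0.050 for other numbers. With 3 samples a group these values cannot decide on pairing. The numbers were not taken as pairs because the labels do not give them as such. Of the values of the counts and list medians under the alternatives, 182 stayed within the replicate spread or 1.5 times the reported count and 13 did not. The 182 include the counts of called genes in the lists, where no gene was called under any setting. For the members the replicate spread was 0.14, about as large as their median of 0.15. Their fall to 0.042 without WT 2 therefore counted as within the spread, and the tally is a weak measure of stability. Fdps and Idi1, with 67 to 193 reads a library, are the members whose depth limits them most.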

Other observations

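Fdps, the member with the fewest reads, has processed copies elsewhere in the genome that held reads in these libraries. The pseudogene Gm3571, on GRCm38 chr10:93778660-93779719, averaged 4.40 ± 0.705 CPM in cKO and 5.12 ± 0.554 CPM in WT cartilage (SD, n = 3 each). The sum over Fdps, its processed copies and the overlapping gene Gm43738 was 7.93, 10.6 and 8.37 CPM in cKO cartilage. In WT cartilage it was 9.86, 8.82 and 10.9 CPM, and the groups overlapped as they did for Fdps alone. The mean of the sum was lower in cKO, at 8.98 ± 1.45 CPM against 9.86 ± 1.04 CPM in WT (SD, n = 3 each). Fdps alone averaged slightly higher in cKO, at 3.88 ± 1.13 CPM against 3.82 ± 0.793 CPM in WT. The sign for Fdps thus depends on whether its copies are included. Whether the sum holds the reads that fall on Fdps and Gm43738 alike is not known. Whether the reads of Gm3571 come from Fdps was not tested.

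Acan, which encodes the aggrecan core protein, averaged 882 ± 152 CPM in cKO and 1345 ± 85.9 CPM in WT cartilage, with no overlap and a log2 fold change of -0.61 ± 0.13 (edgeR p of 0.00122 before and 0.535 after adjustment). Sox9, the chondrocyte transcription factor, averaged 1893 ± 106 CPM in cKO and 1621 ± 207 CPM in WT cartilage, with overlap and a log2 fold change of 0.22 ± 0.10 (edgeR adjusted p = 0.783).

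Of the marker lists, 0 genes passed the edgeR test. Log2 fold changes lay above 0 for 8 of 10 chondrocyte genes (median 0.23), 9 of 10 osteoblast and osteocyte genes (0.24), 10 of 10 erythroid genes (0.51) and 9 of 10 neutrophil genes (0.38). They lay below 0 for 10 of 10 macrophage and leukocyte genes (-0.31), 9 of 10 fibroblast genes (-0.33), 8 of 10 endothelial genes (-0.36) and 9 of 9 tested muscle genes (-1.50). Summed muscle markers were 202, 261 and 29.3 CPM in cKO cartilage, against 62.5, 1627 and 32.7 CPM in WT cartilage. WT 2 thus stood far above every other library, and cKO 1 and cKO 2 stood above WT 1 and WT 3.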
